A study of Mus musculus with 12 samples.

Results

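The genes described here are 10 classical stress-response genes, read in pancreatic islets of mice before and after beta cells were made a target of diphtheria toxin. They are Hmox1, Nqo1, Gclc, Gclm, Gsr, Txnrd1, Srxn1 and Sqstm1, which are known as genes of the oxidative stress response, and the metallothionein genes Mt1 and Mt2. They were chosen by symbol, and each matched 1 of the 48709 genes of the count table. All 10 passed the filter on low counts that left 17294 genes for testing.

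RNA was sequenced from islets of female mice labelled NSG RIP-DTR Htz, in 4 groups of 3 libraries. CTRL islets had no treatment, and the others were taken 1, 3 or 5 DPA with diphtheria toxin (DT). DPA is taken to mean days post-ablation. Every group, CTRL included, carried the transgene, in which the rat insulin promoter places the toxin receptor on beta cells. NSG mice lack mature T, B and NK cells and keep myeloid cells. Whether a group's libraries are from different animals is not stated, and the p-values then cover only variation among these libraries, possibly technical. Libraries held 29867083 to 50012558 counts. A list of 8 beta cell markers took 17.2 to 20.1% of counts in CTRL, 11.2 to 15.2% at 1 DPA, 15.4 to 18.6% at 3 DPA and 15.9 to 20.9% at 5 DPA. Of these 8 markers, 6 were lower at 1 DPA than in CTRL by edgeR, beside 22.4% of all tested genes. Ins1 was among them (log2 -0.81 ± 0.18, adjusted p = 0.00264) but not Ins2 (-0.37 ± 0.16, 0.0801). At 3 and 5 DPA, edgeR called 2 and 3 of the 8 beta cell markers lower, beside 2.37% and 2.67% of all tested genes. Endothelial markers were lower for 4 of 6 at 1 DPA, and duct markers for 1 of 5, which is near the 22.4% of all tested genes. Summed acinar markers ran from 9016 to 60677 CPM in CTRL and from 3792 to 10841 at 3 DPA. Of these 7, edgeR called 0 at 3 DPA, beside 10.2% of all tested genes higher and 2.37% lower. Unadjusted p was under 0.05 for 5 of them, DESeq2 called 5 and limma-voom called 0. Of 5 alpha cell markers edgeR called 0 at 3 DPA (2 unadjusted, 1 by DESeq2, 0 by limma-voom). Of 4 delta and PP cell markers it called 1, higher, beside 10.2% of all tested genes. No marker of the 8 cell type lists checked was at 0 in any library.

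The oxidative stress genes share a switch. The transcription factor NRF2 (gene Nfe2l2) is held by KEAP1 and degraded. Electrophiles and oxidants release it, and it then pairs with a small MAF protein on antioxidant response elements, where the repressor BACH1 competes with it. Its targets make glutathione, regenerate reduced thioredoxin and break down heme. Metallothioneins are small cysteine-rich proteins that bind zinc and copper, and their genes are read through metal response elements by the zinc-sensing factor MTF1. Beta cells are known for low levels of several antioxidant enzymes and for zinc-rich insulin granules.

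At 1 DPA, 3 of the 10 genes were higher than in CTRL (Sqstm1, Mt1 and Mt2) and 7 were lower (Hmox1, Nqo1, Gclc, Gclm, Gsr, Txnrd1 and Srxn1). These counts come from edgeR's quasi-likelihood test with Benjamini-Hochberg adjusted p under 0.05, which called 29.2% of all tested genes higher and 22.4% lower at that time. The median log2 fold change was -0.33 over the 10 genes and -0.05 over all tested genes. In TMM-scaled CPM, 2 of the 10 had all 1 DPA libraries above all CTRL libraries (31.1% of all genes) and 6 had all of them below (23.5%). At 3 DPA, Sqstm1 was higher and Mt1 lower, beside 10.2% and 2.37% of all genes. At 5 DPA, Hmox1 alone was higher, beside 5.87%, and edgeR called 0 of the 10 lower, beside 2.67%. At 5 DPA, 0 of the 10 were lower also at an unadjusted p under 0.05, by DESeq2 and by limma-voom. Groups did not overlap for 2 higher and 4 lower genes at 3 DPA, beside 17.9% and 11.1% of all genes, and for 2 higher and 0 lower at 5 DPA, beside 16.5% and 12.2%. In a bulk sample, fewer cells of a type and less RNA per cell cannot be told apart, which holds for every value here.

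**Figure D1:**
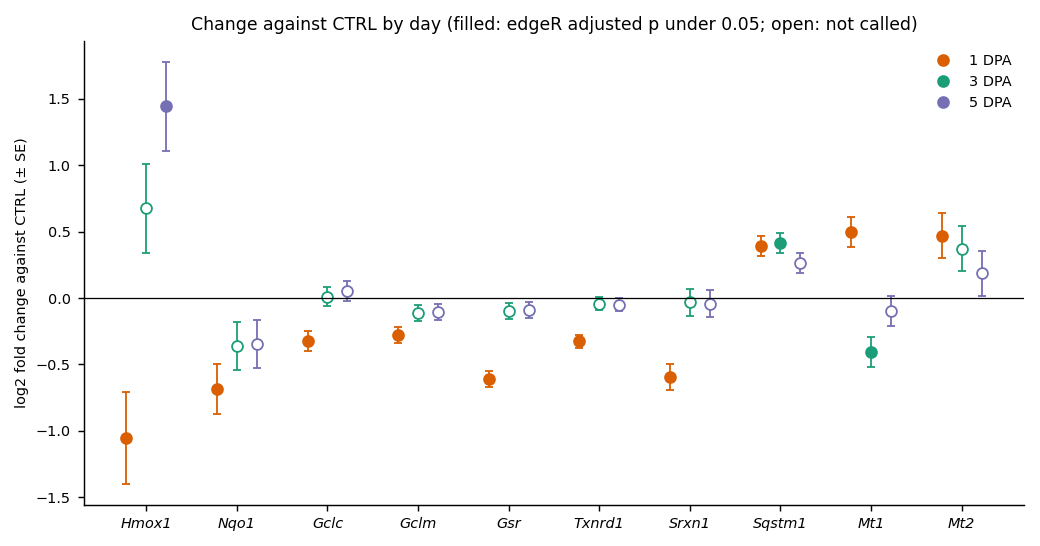
Log2 fold change against CTRL (y axis, ± SE) of the 10 genes (x axis) at 1, 3 and 5 DPA, with filled points for edgeR adjusted p under 0.05. At 1 DPA 7 genes lie below the zero line and 3 above it, while at 5 DPA only the Hmox1 point, at 1.44, is filled.

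Part of the 1 DPA result differed when deposited TPM was used in place of counts. Counts were scaled by TMM, which assumes that most genes do not change. With RLE, another scaling of counts, edgeR again called 3 of the 10 genes higher and 7 lower. With library sizes that leave out the 50 most abundant genes, it called 2 higher and 7 lower. In the authors' deposited TPM, the median gene moved from -0.05 to 0.13 at 1 DPA. There, 2 of the 10 genes (Gsr and Srxn1) were called lower in place of 7, while the same 3 were called higher. The TPM fit also used another test, limma on log2(TPM + 1), and the cause of the difference was not tested. Relative to the median of all genes, the values with TMM and on TPM were close for most of the 10 genes. They were -0.56 and -0.51 for Gsr, -0.54 and -0.50 for Srxn1, -0.28 and -0.23 for Txnrd1, and 0.55 and 0.58 for Mt1. The gaps were wider for Hmox1 (-1.003 and -0.767) and Nqo1 (-0.636 and -0.537). With TMM, 5045 genes were higher and 3871 lower at 1 DPA, and with TPM 5932 were higher and 900 lower. The falls of Gclc, Gclm, Txnrd1, Nqo1 and Hmox1 are falls relative to the median gene, and their TPM values overlapped those of CTRL.

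The metallothionein genes are neighbours, and their levels parted during the time course. Mt2 (ENSMUSG00000031762, mm10 chr8:94172664-94173568, plus strand) lies just upstream of Mt1 (ENSMUSG00000031765, chr8:94179082-94180327, plus strand), with 5513 bases and 0 other annotated genes between them. The coding sequences are shown because they set how far reads of the genes can be told apart. Both have 183 bases and 61 codons, without the stop codon, and both hold 20 cysteine codons. Capitals mark the 38 positions at which the coding sequences of GENCODE transcripts Mt1-201 and Mt2-201 differ.
Mt1: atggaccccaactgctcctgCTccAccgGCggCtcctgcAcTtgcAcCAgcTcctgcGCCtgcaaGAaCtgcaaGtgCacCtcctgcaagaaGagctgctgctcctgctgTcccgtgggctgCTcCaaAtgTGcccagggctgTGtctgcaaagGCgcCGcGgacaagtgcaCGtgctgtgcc
Mt2: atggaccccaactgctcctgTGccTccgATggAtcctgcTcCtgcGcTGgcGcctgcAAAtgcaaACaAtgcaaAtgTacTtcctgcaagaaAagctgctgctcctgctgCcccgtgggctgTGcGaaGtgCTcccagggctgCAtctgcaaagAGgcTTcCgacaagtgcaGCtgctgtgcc
The sequences were identical at 79.2% of positions, and the longest run of bases that the transcripts share is 20. How the authors assigned reads that match more than one place is not given in the sources used here.

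The promoters are shown because the genes are known for a shared family of metal-responsive sites, and their levels rose alike at 1 DPA and parted at 3 DPA. Each line gives 250 bases before to 50 after the start in RefSeq's table for GRCm38.p6. Capitals mark matches, on either strand, to the metal response element core (TGCACNC or TGCGCNC) and to the antioxidant response element core (TGACNNNGC).
Mt2, chr8:94172368-94172667, plus strand: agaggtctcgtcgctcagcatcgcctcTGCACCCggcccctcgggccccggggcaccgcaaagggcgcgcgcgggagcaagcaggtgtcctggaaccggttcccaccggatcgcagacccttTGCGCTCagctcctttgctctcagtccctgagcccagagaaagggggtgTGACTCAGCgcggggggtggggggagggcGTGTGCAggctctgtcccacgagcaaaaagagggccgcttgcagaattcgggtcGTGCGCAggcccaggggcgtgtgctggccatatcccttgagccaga
Mt1, chr8:94178839-94179138, plus strand: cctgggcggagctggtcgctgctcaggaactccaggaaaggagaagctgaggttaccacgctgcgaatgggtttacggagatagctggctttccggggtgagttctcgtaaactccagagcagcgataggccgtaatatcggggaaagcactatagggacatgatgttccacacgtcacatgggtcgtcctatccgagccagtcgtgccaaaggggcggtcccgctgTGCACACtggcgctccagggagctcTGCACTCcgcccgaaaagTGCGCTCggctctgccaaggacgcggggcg
The Mt2 window held 4 metal response element cores and 1 antioxidant response element core, which contains a match to the AP-1 site TGACTCA. The Mt1 window held 3 metal response element cores, and no match within it to the antioxidant core or to AP-1. Bases outside the windows were not searched, so a core just beyond either end would be missed. Of 32851 RefSeq promoter windows of this length, 1.97% held 3 or more metal cores, 0.517% held 4 or more, 12.4% held an antioxidant core and 5.20% an AP-1 site. These are letter matches and not measured binding. Windows were found for 7 of the 10 genes. Among the others, the Srxn1 window held 1 antioxidant core, 1 metal core and 2 AP-1 sites. The Gclm window held 1 antioxidant core that overlaps 1 of its 3 metal cores, and 1 of 3 Txnrd1 starts held an antioxidant core. The Nqo1 and Sqstm1 windows held no match to the antioxidant core, the metal core or AP-1.

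Mt1 had 93.1, 107 and 101 CPM (its counts as a share of the TMM-scaled library size) in the CTRL libraries and 163, 128 and 134 at 1 DPA. It then had 76.2, 77.5 and 73.5 CPM at 3 DPA and 103, 100.1 and 77.7 at 5 DPA. All 1 DPA libraries lay above all CTRL libraries, all 3 DPA libraries lay below them, and the 5 DPA libraries overlapped them. The log2 fold change against CTRL was 0.50 ± 0.11 (SE) at 1 DPA (edgeR adjusted p = 0.00308), -0.40 ± 0.11 at 3 DPA (adjusted p = 0.0349) and -0.10 ± 0.11 at 5 DPA (adjusted p = 0.655). The fall at 3 DPA was not called without CTRL replicate 2 (adjusted p = 0.0809), CTRL replicate 3 (0.0751) or 3 DPA replicate 1, 2 or 3 (0.0755, 0.0719 and 0.113), nor on TPM (0.179). From 1 to 3 DPA Mt1 fell by 0.90 ± 0.11 on the log2 scale (adjusted p = 7.51e-05).

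Mt2 had 45.8, 57.6 and 42.0 CPM in CTRL and 80.3, 57.5 and 63.3 at 1 DPA. The later libraries had 65.1, 58.0 and 64.8 CPM at 3 DPA and 63.5, 59.3 and 42.6 at 5 DPA. Replicate 2 of 1 DPA and CTRL replicate 2 had nearly the same value, so the groups overlapped at 1 DPA, while all 3 DPA libraries lay just above all CTRL ones. The rise at 1 DPA was 0.47 ± 0.17 (adjusted p = 0.0384). It was not called without CTRL replicate 1 (0.15), CTRL replicate 3 (0.115), 1 DPA replicate 1 (0.154) or 1 DPA replicate 3 (0.0912), nor with the 50 most abundant genes left out of the library sizes (0.0641), with no filter on low counts (0.0666) or with only the 2 groups fitted (0.0501). At 3 and 5 DPA the log2 differences were 0.37 ± 0.17 (adjusted p = 0.202) and 0.19 ± 0.17 (0.543). Among the 10 genes, Mt2 alone was not called for any difference among the 4 groups (adjusted p = 0.117), beside 57.4% of all tested genes called.

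The ratio of Mt2 to Mt1 within a library does not depend on how libraries are scaled. In deposited TPM it was 1.04, 1.14 and 0.880 in CTRL, 1.04, 0.955 and 1.003 at 1 DPA, 1.81, 1.59 and 1.87 at 3 DPA and 1.30, 1.26 and 1.16 at 5 DPA. All 3 DPA libraries lay above all others, and all 5 DPA libraries lay above those of CTRL and 1 DPA. Means were 1.02 ± 0.134 (SD, n = 3) in CTRL, 1.00 ± 0.0445 at 1 DPA, 1.76 ± 0.150 at 3 DPA and 1.24 ± 0.0723 at 5 DPA. An exact permutation test over the 4 groups gave p = 0.00110 with no direction set, and 0.00221 after adjustment over the 2 ratios tested. Each pair of groups other than CTRL and 1 DPA gave an exact permutation p of 0.1, the smallest that 3 libraries against 3 can reach. The ratio was 1.72-fold higher at 3 DPA than in CTRL and 1.22-fold higher at 5 DPA. It was chosen for a test after the values of the genes were seen. Summed TPM of the genes was 338 to 371 in CTRL, 502 to 619 at 1 DPA, 365 to 415 at 3 DPA and 317 to 476 at 5 DPA.

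**Figure D2:**
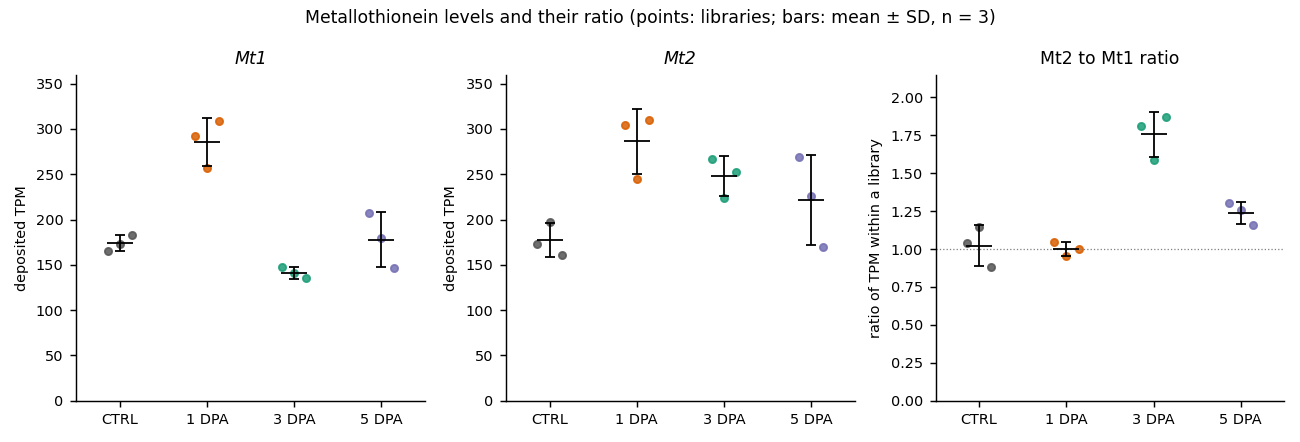
Deposited TPM of Mt1 and Mt2 and the ratio of Mt2 to Mt1 (y axes) in the 4 groups (x axis), with a point for each library and bars for the mean ± SD of 3. Both genes are highest at 1 DPA with a ratio near 1, and at 3 DPA the ratio is 1.59 to 1.87.

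Of 17 other genes of zinc and copper handling, edgeR called 1 higher and 12 lower at 1 DPA, beside 29.2% and 22.4% of all genes. On TPM 3 were higher and 6 lower, beside 34.3% and 5.20% of all genes. Mtf1, the factor that reads metal response elements, was the higher one, from 47.6 to 68.2 mean CPM (log2 0.52 ± 0.08, adjusted p = 0.000126). The zinc transporter genes Slc39a13 and Slc30a5 fell by 0.69 ± 0.09 (adjusted p = 4.06e-05) and 0.56 ± 0.07 (5.15e-05) on the log2 scale. The zinc importer Slc39a8 fell by 1.34 ± 0.18 on the log2 scale (adjusted p = 8.15e-05) and Mt3, another metallothionein, by 1.05 ± 0.26 (0.00529). Slc30a8, the transporter that loads zinc into insulin granules, had 702 mean CPM in CTRL and 541, 512 and 527 at 1, 3 and 5 DPA. Its log2 differences were -0.38 ± 0.11 (adjusted p = 0.0108), -0.46 ± 0.11 (0.0131) and -0.41 ± 0.11 (0.0345), and on TPM it was called at none of these times (0.254, 0.0530 and 0.142). Slc30a1, which exports zinc and is a known MTF1 target, was not called at 1 DPA (0.34 ± 0.14, adjusted p = 0.0577), but on TPM it was called higher (0.52, limma adjusted p = 0.0232).

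Mt1 and Mt2 are also known targets of the glucocorticoid receptor. The list for that response held 8 genes, the receptor gene Nr3c1 among them. Of these, edgeR called 3 higher at 1 DPA, 2 at 3 DPA and 1 at 5 DPA, beside 29.2%, 10.2% and 5.87% of all genes. The share at 1 DPA is near that of all genes. On TPM 4 were higher at 1 DPA, beside 34.3% of all genes. Those not called there were Fkbp5 (limma adjusted p = 0.156), Sgk1 (0.469), Zbtb16 (0.888) and Dusp1 (0.0890). Per1, a clock gene that glucocorticoids induce, had 66.1 mean CPM in CTRL and 786, 436 and 175 at 1, 3 and 5 DPA, with log2 fold changes of 3.57 ± 0.39 (adjusted p = 4.49e-05), 2.72 ± 0.37 (0.00105) and 1.40 ± 0.36 (0.0430). The receptor gene Nr3c1 rose by 0.45 ± 0.08 on the log2 scale at 1 DPA (0.000379). The phosphatase gene Dusp1 was called at 3 DPA only (0.85 ± 0.23, adjusted p = 0.0362). What these genes share with Mt1 and Mt2 in control was not tested.

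Glutathione is made by glutamate-cysteine ligase, whose catalytic subunit is Gclc (ENSMUSG00000032350, chr9:77754535-77794485, plus strand) and whose modifier subunit is Gclm (ENSMUSG00000028124, chr3:122245557-122270732, plus strand). Gclc had 38.0, 32.1 and 34.4 CPM in CTRL, 28.0, 26.4 and 29.1 at 1 DPA, 36.3, 35.2 and 33.9 at 3 DPA and 34.8, 35.9 and 37.8 at 5 DPA. Gclm had 91.9, 95.5 and 96.5 CPM in CTRL, 81.3, 76.0 and 76.8 at 1 DPA, 82.7, 89.0 and 90.9 at 3 DPA and 92.1, 88.5 and 83.1 at 5 DPA. In both genes all 1 DPA libraries were below all CTRL ones. The log2 differences at 1 DPA were -0.32 ± 0.07 for Gclc (adjusted p = 0.00301) and -0.28 ± 0.06 for Gclm (0.00181), and neither was called on TPM (0.580 and 0.697). At 3 and 5 DPA the Gclc values were 0.01 ± 0.07 and 0.05 ± 0.07, and those of Gclm were -0.11 ± 0.06 at both times, none of them called. The Gclm to Gclc ratio of TPM was 1.49 ± 0.156, 1.53 ± 0.0783, 1.36 ± 0.111 and 1.33 ± 0.123 (SD, n = 3) in order of time, and did not pass an exact permutation test over the groups (p = 0.211).

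Gsr (ENSMUSG00000031584, chr8:33652523-33698163, plus strand) encodes glutathione reductase, which returns oxidised glutathione to its reduced form. It had 53.3, 50.2 and 53.1 CPM in CTRL and 34.2, 35.5 and 32.7 at 1 DPA. It had 48.8, 49.3 and 48.5 CPM at 3 DPA and 47.3, 46.8 and 52.8 at 5 DPA. The 1 DPA libraries stood well below every other library. The fall was 0.61 ± 0.06 on the log2 scale at 1 DPA (adjusted p = 7.10e-06), the smallest p of the 10 genes in that comparison, and Gsr was also lower on TPM (0.0103). At 3 and 5 DPA the differences were -0.10 ± 0.06 (0.373) and -0.09 ± 0.06 (0.384).

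Txnrd1 (ENSMUSG00000020250, chr10:82833951-82897712, plus strand) encodes cytosolic thioredoxin reductase. It had 135, 144.5 and 148 CPM in CTRL, 116, 115 and 111 at 1 DPA, 137, 139 and 139 at 3 DPA and 139, 142 and 133 at 5 DPA. Srxn1 (ENSMUSG00000032802, chr2:152105516-152111376, plus strand) encodes sulfiredoxin, which repairs over-oxidised peroxiredoxins. Its values were 64.6, 66.9 and 66.5 CPM in CTRL, 48.3, 46.6 and 36.3 at 1 DPA, 57.3, 68.7 and 67.6 at 3 DPA and 66.7, 63.5 and 62.2 at 5 DPA. For both genes only the 1 DPA libraries lay wholly below CTRL. The falls at 1 DPA were 0.33 ± 0.05 on the log2 scale for Txnrd1 (adjusted p = 0.000231, not called on TPM at 0.424) and 0.59 ± 0.10 for Srxn1 (0.000405, and 0.00527 on TPM). At 3 DPA their differences were -0.04 ± 0.05 (0.682) and -0.03 ± 0.10 (0.885), and at 5 DPA -0.05 ± 0.05 (0.609) and -0.04 ± 0.10 (0.845).

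Nqo1 (ENSMUSG00000003849, chr8:107388225-107403206, minus strand) encodes a quinone reductase often used as a readout of NRF2. It was low in every library, with 7.22 CPM in CTRL replicate 1, 6.01 in replicate 3 and slightly less in replicate 2. It had 3.88, 3.43 and 4.66 at 1 DPA, 5.20, 4.58 and 5.16 at 3 DPA and 4.07, 6.31 and 4.74 at 5 DPA. The 1 and 3 DPA libraries were all below CTRL, and those of 5 DPA overlapped it. The log2 differences were -0.68 ± 0.19 (adjusted p = 0.00873), -0.36 ± 0.18 (0.250) and -0.35 ± 0.18 (0.272). On TPM the fall at 1 DPA was not called (0.0696).

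The remaining enzymes of these systems showed falls and rises at 1 DPA. Across 46 genes in 4 lists (other NRF2 targets, glutathione enzymes, thioredoxins with peroxiredoxins, and enzymes of superoxide and hydrogen peroxide), edgeR called 6 higher and 22 lower, beside 29.2% and 22.4% of all genes. On TPM 7 were higher and 6 lower, beside 34.3% and 5.20% of all genes. The list median was -0.26 with TMM scaling and -0.04 on TPM, beside all-gene medians of -0.05 and 0.13. Txn1, the main cytosolic thioredoxin, fell by 0.91 ± 0.16 on the log2 scale (adjusted p = 0.000591), from 45.1 to 24.0 mean CPM. Glucose-6-phosphate dehydrogenase, G6pdx, a source of NADPH for both systems, fell by 0.80 ± 0.09 (2.31e-05), the glutaredoxin gene Glrx by 0.75 ± 0.09 (2.33e-05) and the peroxiredoxin gene Prdx1 by 0.61 ± 0.08 (9.04e-05). The mitochondrial peroxiredoxin gene Prdx3 fell by 0.35 ± 0.06 (0.000414) and the cytosolic superoxide dismutase gene Sod1 by 0.41 ± 0.05 (2.68e-05), and neither was called on TPM (0.381 and 0.126). The mitochondrial Sod2 was not called at 1 DPA (-0.08 ± 0.07, adjusted p = 0.297). Abcc1, which exports glutathione conjugates, rose from 38.5 to 95.3 mean CPM (1.31 ± 0.11, adjusted p = 1.61e-06), and Gss, the enzyme of the second step of glutathione synthesis, rose by 0.58 ± 0.11 (0.000739).

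At 3 DPA edgeR called 0 of those 46 genes, beside 10.2% of all genes higher and 2.37% lower. Unadjusted p was under 0.05 for 3 of them, DESeq2 called 1 and limma-voom called 0. At 5 DPA edgeR called 2 higher and 0 lower, beside 5.87% and 2.67% of all genes, so the higher share was under that of all genes. The 2 genes were Prdx1 (0.38 ± 0.08, adjusted p = 0.0187) and Gpx7, a glutathione peroxidase of the endoplasmic reticulum (0.89 ± 0.23, adjusted p = 0.0367).

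**Figure D3:**
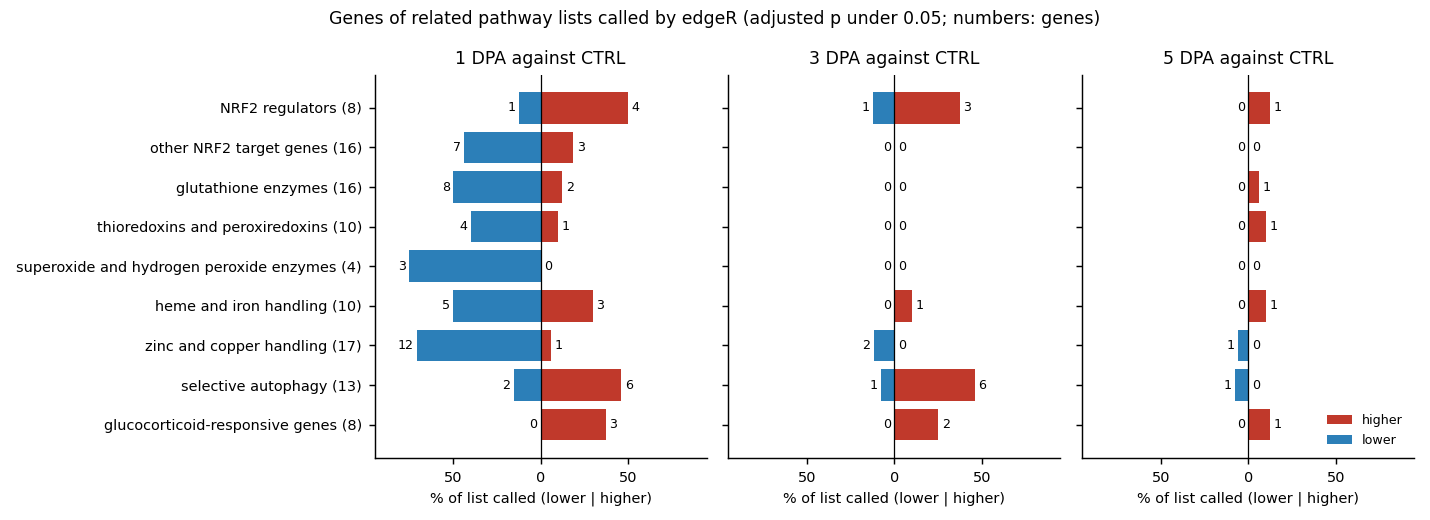
Share of each pathway list (y axis, number of tested genes in brackets) that edgeR called lower (left) or higher (right) than CTRL at 1, 3 and 5 DPA (x axis, percent of the list; the number beside each bar is the gene count). At 1 DPA 12 of 17 zinc and copper genes were lower and 4 of 8 NRF2 regulators higher, and at 3 DPA 6 of 13 autophagy genes were higher.

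Of the regulators, the small MAF genes changed most, Cul3 rose at 1 DPA, and edgeR did not call the genes of NRF2, KEAP1 and BACH1. Nfe2l2, which encodes NRF2 itself, had 43.9, 49.5, 45.4 and 49.99 mean CPM in CTRL and at 1, 3 and 5 DPA and was not called by edgeR (log2 0.17 ± 0.07, adjusted p = 0.0579 at 1 DPA). On TPM it was called higher at 1 DPA (0.38, limma adjusted p = 0.0190). Neither Keap1 (-0.07 ± 0.06, 0.398) nor Bach1 (0.00 ± 0.07, 0.987) was called at 1 DPA. The small MAF genes rose: Maff went from 8.0 mean CPM in CTRL to 199.6, 195 and 70.0, which are log2 fold changes of 4.63 ± 0.25 (adjusted p = 3.70e-07), 4.60 ± 0.25 (4.80e-06) and 3.12 ± 0.24 (0.000198). Mafg rose by 0.94 ± 0.10 at 1 DPA (8.58e-06) and 0.54 ± 0.10 at 3 DPA (0.00236). Mafk rose by 0.99 ± 0.16 (0.000315) and 1.03 ± 0.16 (0.00113) at those times. Small MAF proteins lack an activation domain and can pair with NRF2, with BACH1 or with each other. Of the 8 regulators, edgeR called 4 higher and 1 lower at 1 DPA, beside 29.2% and 22.4% of all genes, and on TPM 5 were higher and 0 lower, beside 34.3% and 5.20%. Beside the small MAF genes, the other higher one with edgeR was Cul3, from 115 to 155 mean CPM (0.64 on TPM, limma adjusted p = 0.000257). The lower one with edgeR was Nfe2l1, a relative of NRF2 (-0.45 ± 0.06, adjusted p = 3.56e-05, not called on TPM at 0.0563). At 3 DPA edgeR called 3 of the 8 higher and 1 lower, beside 10.2% and 2.37% of all genes. At 5 DPA it called 1 higher and 0 lower, beside 5.87% and 2.67%.

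Hmox1 (ENSMUSG00000005413, chr8:75093621-75100589, plus strand) encodes heme oxygenase 1, which breaks heme into biliverdin, iron and carbon monoxide and is abundant in macrophages that clear red cells. It had 11.8, 15.0 and 5.14 CPM in CTRL, 4.68, 5.57 and 5.14 at 1 DPA, 19.8, 14.1 and 17.0 at 3 DPA and 37.9, 21.6 and 27.2 at 5 DPA. CTRL replicate 3 lay among the 1 DPA libraries, and every 5 DPA library exceeded every library of the other groups. The log2 fold change against CTRL was -1.05 ± 0.35 at 1 DPA (adjusted p = 0.0270), 0.68 ± 0.33 at 3 DPA (0.246) and 1.44 ± 0.34 at 5 DPA (0.0284), which is 2.72-fold. The 1 DPA fall was not called without CTRL replicate 1 (0.0653), without CTRL replicate 2 (0.0887), without any 1 DPA library (0.0562 to 0.0833), with limma-voom (0.162) or on TPM (0.158). The 5 DPA rise was not called without 5 DPA replicate 1 (0.110, log2 1.20) or replicate 3 (0.0595), or when only CTRL and 5 DPA were fitted (0.143).

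Summed markers of macrophages and stroma, like Hmox1, had their lowest group mean at 1 DPA and their highest at 5 DPA. Within groups the order of the libraries differed from that of Hmox1, except for the stromal sum at 5 DPA, where it was the same. Summed CPM of 11 macrophage markers was 592, 386 and 142 in CTRL, 110.3, 105 and 128 at 1 DPA, 386, 229.9 and 394 at 3 DPA and 677, 647 and 897 at 5 DPA. EdgeR called 9 of the 11 lower at 1 DPA and 2 higher at 5 DPA than in CTRL, beside 22.4% and 5.87% of all genes. Summed CPM of 9 stromal markers was 1777, 1409 and 519 in CTRL, 560.5, 613 and 702 at 1 DPA, 1735, 1171 and 1808 at 3 DPA and 4436, 2662 and 2757 at 5 DPA, with 2 lower at 1 DPA and 2 higher at 5 DPA. The 2 stromal markers called lower at 1 DPA are a share near the 22.4% of all tested genes. The 2 called higher at 5 DPA stand beside 5.87% of all genes. Summed CPM of 6 endothelial markers was also lowest at 1 DPA and highest at 5 DPA, over a narrower range. Its group medians were 864 in CTRL and 686, 905 and 933 at 1, 3 and 5 DPA. CTRL replicate 3 had the lowest value of its group for Hmox1 and for all of these sums. The part of these cell types in the Hmox1 values was not tested. The 3 genes whose log2 CPM was most like that of Hmox1 over the 12 libraries were Cdh11 (Pearson r 0.99), Postn (0.99) and Pros1 (0.98), as a description over libraries that share their groups.

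**Figure D4:**
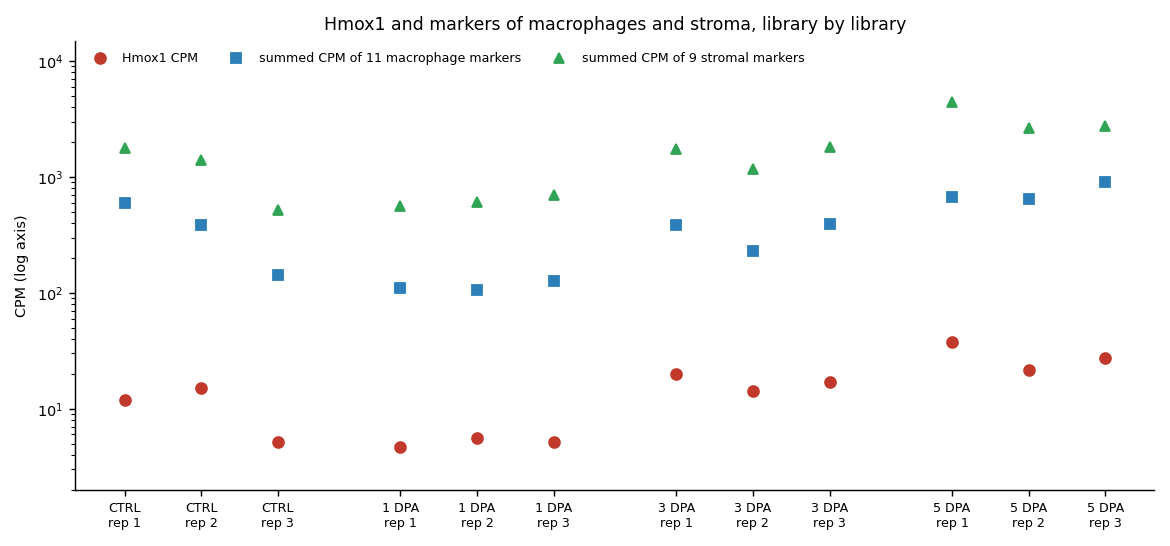
CPM of Hmox1 and summed CPM of 11 macrophage and 9 stromal markers (y axis, log scale) in each of the 12 libraries (x axis). CTRL replicate 3 and the 1 DPA libraries are low in all 3 measures, and the 5 DPA libraries are highest, with 21.6 to 37.9 CPM of Hmox1.

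Other genes of heme and iron handling were called in both directions at 1 DPA, with 3 higher and 5 lower of 10, beside 29.2% and 22.4% of all genes. The biliverdin reductases Blvra and Blvrb, which act after heme oxygenase, fell by 0.74 ± 0.11 (adjusted p = 0.000147) and 0.77 ± 0.18 (0.00360) on the log2 scale, and the iron exporter Slc40a1 fell by 0.75 ± 0.19 (0.00710). Hpx, the heme-binding protein hemopexin, rose from 1.0 mean CPM in CTRL to 8.6, 10.3 and 2.9. Its log2 fold changes were 3.11 ± 0.39 (adjusted p = 4.94e-05), 3.38 ± 0.39 (0.000172) and 1.57 ± 0.38 (0.0290), the last not called on TPM (0.123).

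Sqstm1 (ENSMUSG00000015837, chr11:50199366-50210827, minus strand) encodes p62, a receptor of selective autophagy that also binds KEAP1. Its values were 375, 342 and 362 CPM in CTRL, 493, 454 and 468 at 1 DPA, 510.4, 428 and 501 at 3 DPA and 418, 425 and 454 at 5 DPA. All treated libraries lay above all CTRL libraries. The log2 rise was 0.39 ± 0.08 at 1 DPA (adjusted p = 0.00110), 0.41 ± 0.08 at 3 DPA (0.00306) and 0.26 ± 0.08 at 5 DPA. The 5 DPA value was just past the threshold (adjusted p = 0.0526) and was called by DESeq2 (0.00745) and limma-voom (0.0454). With the replicate number as a block its adjusted p was 0.0413. An opposite-strand gene, Mrnip, overlaps Sqstm1 and had at most 111 counts in a library.

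Among 13 other genes of selective autophagy, edgeR called 6 higher and 2 lower at 1 DPA, beside 29.2% and 22.4% of all genes. At 3 DPA it called 6 higher and 1 lower, beside 10.2% and 2.37%. On TPM 8 were higher and 2 lower at 1 DPA, beside 34.3% and 5.20% of all genes. At 3 DPA 3 were higher and 0 lower on TPM, beside 7.60% and 0.243%. The cargo receptors Tax1bp1 and Nbr1 rose by 0.81 ± 0.06 (adjusted p = 4.73e-07) and 0.51 ± 0.06 (3.12e-05) at 1 DPA. Map1lc3b, which encodes the autophagosome protein LC3B, rose by 0.50 ± 0.08 at 3 DPA (0.000851). Calcoco1, a receptor for parts of the endoplasmic reticulum and Golgi, was lower at 1 DPA (-0.60 ± 0.09, adjusted p = 0.000109), 3 DPA (-0.31 ± 0.08, 0.0289) and 5 DPA (-0.33 ± 0.08, 0.0367), but on TPM it was not called at 3 DPA (0.364) or 5 DPA (0.339).

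Levels of different genes can be compared per length, in TPM. In CTRL the order of group means was Sqstm1 (233 ± 23.1 TPM, SD, n = 3), Mt2 (177 ± 18.8), Mt1 (174 ± 8.76), Txnrd1 (90.4), Srxn1 (50.7), Gsr (41.1), Gclm (32.6), Gclc (22.1), Hmox1 (13.0) and Nqo1 (8.95). Mt2 and Mt1 did not differ beyond their spread there. At 1 DPA Sqstm1 had 356 ± 39.7 TPM, Mt2 286 ± 36.0 and Mt1 286 ± 26.7. At 3 DPA Mt2 (248 ± 22.2) and Mt1 (141 ± 6.34) stood apart. Hmox1 moved from the ninth place in CTRL to the seventh at 5 DPA, with 39.4 mean TPM beside 42.0 for Gsr and 33.0 for Gclm.

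**Figure D5:**
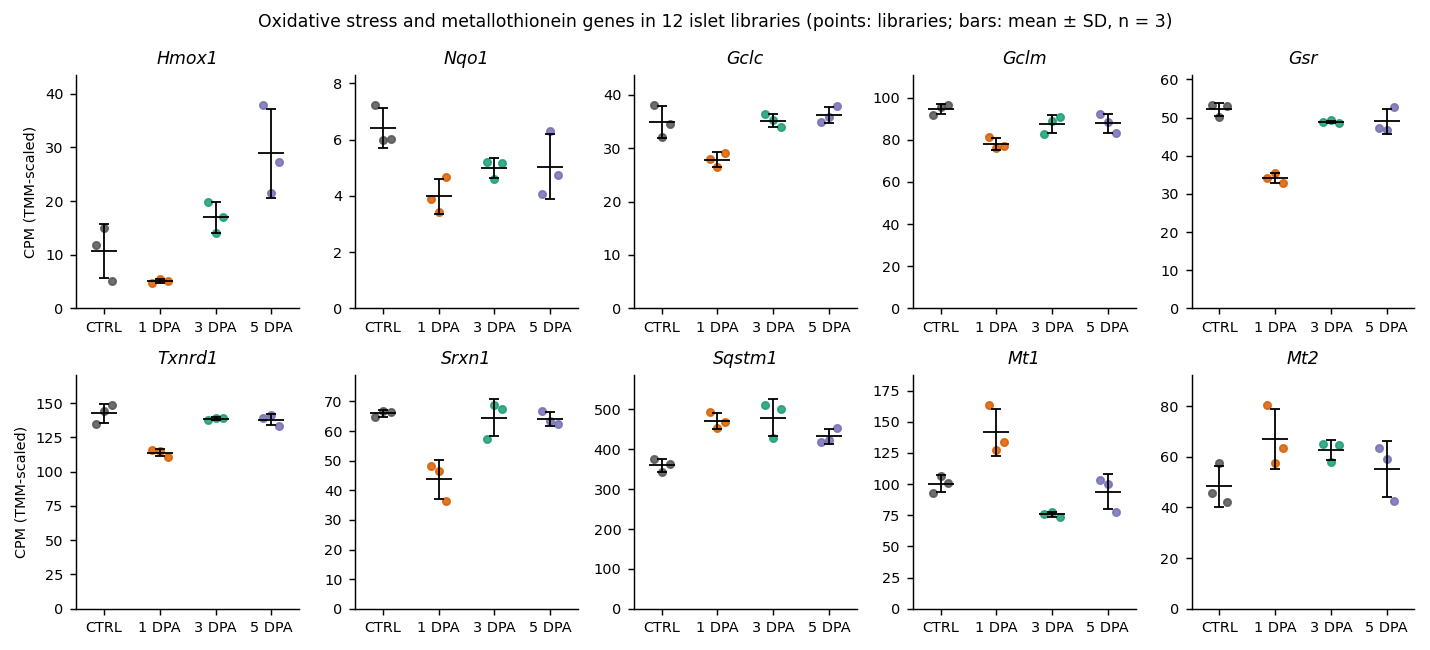
TMM-scaled CPM (y axis) of each of the 10 genes, 1 panel per gene, in the 4 groups (x axis), with a point for each library and bars for the mean ± SD of 3. Gsr, Txnrd1 and Srxn1 are lowest at 1 DPA only, Hmox1 is highest at 5 DPA, and Sqstm1 lies above CTRL at all 3 times.

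Between the treated groups, 6 of the 10 genes were higher and 1 lower at 3 DPA than at 1 DPA, beside 20.4% and 24.7% of all genes. The same counts, 6 and 1, were found at 5 DPA against 1 DPA, beside 26.3% and 29.8%. In both comparisons the higher genes were Hmox1, Gclc, Gclm, Gsr, Txnrd1 and Srxn1 and the lower one was Mt1, and the comparisons share the 1 DPA libraries. Hmox1 rose by 1.73 ± 0.35 on the log2 scale from 1 to 3 DPA (adjusted p = 0.00259) and by 2.49 ± 0.35 from 1 to 5 DPA (0.000199). Gsr was 0.52 ± 0.06 higher at 3 DPA (4.62e-05) and Srxn1 0.56 ± 0.10 (0.000856). Gclm, 0.17 higher at both times, was not called without 1 DPA replicate 2 in either comparison, without 3 DPA replicate 2 or 3 in the first, or without 5 DPA replicate 1 or 2 in the second. On TPM 3 of the 10 were higher in each of these comparisons. Between 5 and 3 DPA edgeR called 0 of the 10 in either direction, beside 0.711% of genes higher and 2.46% lower, and DESeq2 and limma-voom also called 0. Unadjusted p was under 0.05 for 2 of the genes, Hmox1 (0.77 ± 0.33, edgeR adjusted p = 0.262) and Mt1 (0.31 ± 0.11, edgeR adjusted p = 0.173). In both of them all 5 DPA libraries lay above all 3 DPA libraries, as they did in 12% of all genes.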

How the data were processed

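RNA of 12 islet libraries in 4 groups of 3 was made with the QIAseq stranded mRNA kit, per the labels' protocols. The deposited table holds whole-number counts per gene and the authors' TPM. The genome build mm10 is per the submitters' processing notes, while the sources used here do not name the aligner, the counter or the use of strand. The 12 count and 12 TPM columns were used, and 24 other per-sample columns of the table (RPKM and CPM) were not. Counts were tested in R 4.3.3 with edgeR 4.0.16 (TMM scaling, filterByExpr with a minimum count of 10, robust quasi-likelihood fit over all 12 libraries, 1 mean per group). P-values were adjusted by Benjamini-Hochberg over 17294 genes with a threshold of 0.05, and each SE is the log2 fold change divided by the square root of F. CPM uses TMM-scaled library sizes. Ratios of TPM were compared by exact permutation over libraries.

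The 10 genes, 9 pathway lists (103 genes, of which 102 were tested; Fth1 was not matched) and 8 marker lists (55 genes) were chosen with earlier results of these data known. The text names every one of the 10 genes, genes of a pathway list called against CTRL including those of smallest p, regulators that were not called, and, by Pearson correlation of log2 CPM (prior count 2), the genes most like a member. Alternatives were DESeq2 1.42.0, limma-voom (limma 3.58.1), RLE in place of TMM, library sizes that leave out the 50 most abundant genes, no filter, a fit of only the pair compared, a block for the replicate number, and leaving out each library. The fit of log2(TPM + 1) by limma, ratios of counts and leave-one-out ratios were added after seeing the data. Deviations of same-numbered libraries from their group means correlated above 0.1 for all 3 numbers only between 3 and 5 DPA (0.156 to 0.326), where the number may mark a shared source that the labels do not name. Replicates differed by more than sampling noise (chi-square per degree of freedom 47.3 to 229.6). On simulated data with 200 changed genes, the 1 DPA comparison recovered 65% of genes lowered and 67% of genes raised by a log2 fold of 1, with 7 of 139 calls false among 17054 genes. Positions come from GENCODE M21 for mm10 and promoters from RefSeq for GRCm38.p6.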

Additional observations from a re-analysis of the deposited data

Results flagged for a closer look

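The effects of diphtheria toxin against CTRL differed between days for 7 of the 10 genes, by edgeR's quasi-likelihood test of one treated group against another. Of all tested genes, 20.4% were higher and 24.7% lower at 3 than at 1 DPA, and 26.3% and 29.8% at 5 than at 1 DPA. The comparisons share the 1 DPA libraries. From 1 to 3 DPA the log2 differences were 1.73 for Hmox1, 0.56 for Srxn1, 0.52 for Gsr, 0.34 for Gclc, 0.29 for Txnrd1, 0.17 for Gclm and -0.90 for Mt1. From 1 to 5 DPA they were 2.49 for Hmox1, 0.55 for Srxn1, 0.52 for Gsr, 0.38 for Gclc, 0.28 for Txnrd1, 0.17 for Gclm and -0.59 for Mt1. On TPM the values for Gclc, Gclm and Txnrd1 were not called in either comparison. Between 1 and 3 DPA summed macrophage markers went from 105 to 128 CPM to 229.9 to 394 CPM, and their part in the Hmox1 difference was not tested.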

How the results depend on the processing

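Of 924 alternative values for the single genes and the ratios, 879 were counted as unchanged. Of the rest, 42 kept the direction and lost the call, 3 gained it and 0 reversed a called direction. Unchanged gene values kept their side of the threshold, and unchanged ratios lay within 1 SD of the main value. Uncalled values could change sign and still count as unchanged, as Gclm at 5 DPA did on TPM (log2 -0.11 to 0.02). Alternatives that changed counts were these, with the main value first. With DESeq2, genes of the 10 higher at 5 DPA than in CTRL went from 1 to 2, all genes lower at 3 DPA from 410 to 942, higher and lower at 5 DPA from 1016 and 461 to 1545 and 855, and higher and lower at 5 against 3 DPA from 123 and 425 to 416 and 761. With limma-voom, 2 of the 10 were higher at 5 DPA. With only the 2 groups compared, 0 of the 10 were higher at 5 DPA, 222 genes were lower at 3 DPA, 418 higher and 204 lower at 5 DPA, and 278 higher at 5 against 3 DPA. Without a filter, 307 genes were lower at 5 DPA and 266 at 5 against 3 DPA. Without the 50 most abundant genes in the library sizes, 814 were lower at 3 DPA, where 67.1% of calls were higher (67.5% with DESeq2) beside 81.2%. With the replicate number as a block, 2 of the 10 were higher at 5 DPA, Gclm at 3 against 1 DPA was not called (adjusted p = 0.0587), and 241 genes were lower at 5 against 3 DPA; it changed no other call of the 10.

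On TPM, 2 of the 10 were lower at 1 DPA in place of 7, 0 lower at 3 DPA in place of 1, and 3 higher at 3 and at 5 DPA against 1 DPA in place of 6. Over all genes, 900 were then lower at 1 DPA, 42 at 3 DPA and 17 at 5 DPA, 673 were higher at 5 DPA, 1493 and 3001 higher at 3 and 5 against 1 DPA, and 38 higher and 134 lower at 5 against 3 DPA. The higher share of calls went from 56.6% to 86.8% at 1 DPA, from 81.2% to 96.9% at 3 DPA, from 68.8% to 97.5% at 5 DPA, from 45.3% to 25.3% at 3 against 1 DPA and from 46.9% to 36.6% at 5 against 1 DPA. The cause was not tested.

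Leaving out 1 library gave 0 to 1 of the 10 higher at 5 DPA (0 without 5 DPA replicate 1 or 3) and 0 to 1 lower at 3 DPA (0 without CTRL replicate 2 or 3 or any 3 DPA library). Over all genes it gave 1128 to 1754 higher and 180 to 738 lower at 3 DPA, 405 to 1330 higher and 57 to 807 lower at 5 DPA, and 3 to 13 higher and 23 to 276 lower at 5 against 3 DPA. With 3 libraries a group, an exact test of a pair cannot go below 0.1.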

Other observations

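The genes whose log2 CPM was most like that of a member over the 12 libraries are given as a description, since the libraries share their groups. For Gsr they were Ssr1 (Pearson r 0.99), Tmed7 (0.99) and Stt3a (0.98), which belong to the secretory pathway of the endoplasmic reticulum and early Golgi. For Sqstm1 they were Hist1h4a (0.97), Ifrd1 (0.95) and Hist1h2ae (0.94). For Mt1 they were Tmem63a (0.96), Cntrob (0.96) and Fam234a (0.95), and for Mt2 Trib1 (0.88), Cfap206 (0.84) and Kctd5 (0.84), so that no gene named for Mt1 was named for Mt2. For Gclc the second most alike gene was Blvra (0.95), a member of the heme and iron list.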
